A study of Danio rerio with 6 samples.

Results

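Rev-erb receptors, their D-box counterparts and the Clock-type activators were followed as 10 genes among the 19822 in the deposited table, 1 row each, chosen by gene symbol. The repressing genes were nr1d1, nr1d2a, nr1d2b and nfil3, the PAR bZIP genes were dbpa, dbpb, tefa and tefb, and the activating genes were clocka and npas2. They were read in regenerating caudal fins of wild-type AB zebrafish aged 3 to 12 months, in equal numbers of males and females. Galloflavin, an inhibitor of lactate dehydrogenase, was injected into the body cavity at 0.12 mg per g in DMSO, and the control fish received DMSO. All fish regenerated at 33 °C after housing at 28 °C, and the fins were taken 24 h after amputation together with 1 ray segment of the stump. Each of the 3 DMSO and 3 Galloflavin libraries came from a pool of 10 fins, so that variation between single fish is not seen. The library names end in B1, B2 or B3, read here as batches, and each batch held 1 library of either group. The sources used here give a housing cycle of 14 h light and 10 h dark, and they give no hour of injection, amputation or collection.

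In the vertebrate clock, Clock or Npas2 pairs with Bmal proteins and switches on genes that carry E-boxes, among them the period, cryptochrome, nr1d and PAR bZIP genes. The Nr1d proteins (Rev-erbs) then repress Bmal genes at elements that Ror receptors activate, while PAR bZIP proteins activate and Nfil3 represses genes through the D-box, roles known mainly from mouse. Zebrafish tissues outside the brain keep such clocks and respond to light directly, and levels of these transcripts change with the hour of the day.

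Between 17712157 and 29596335 reads were counted per library, and the B3 libraries were the shallowest. All 8 epidermal markers and 11 of 12 markers of the early regenerate that were sought were measured. Of 9 skeletal muscle markers sought, only 3 were in the deposited table, and these summed to 6.76 to 12.5 normalised counts. In bulk tissue, fewer cells of a type and less RNA per cell cannot be told apart. The values are normalised counts with no correction for gene length, so levels are compared between libraries and not between genes.

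**Figure D1:**
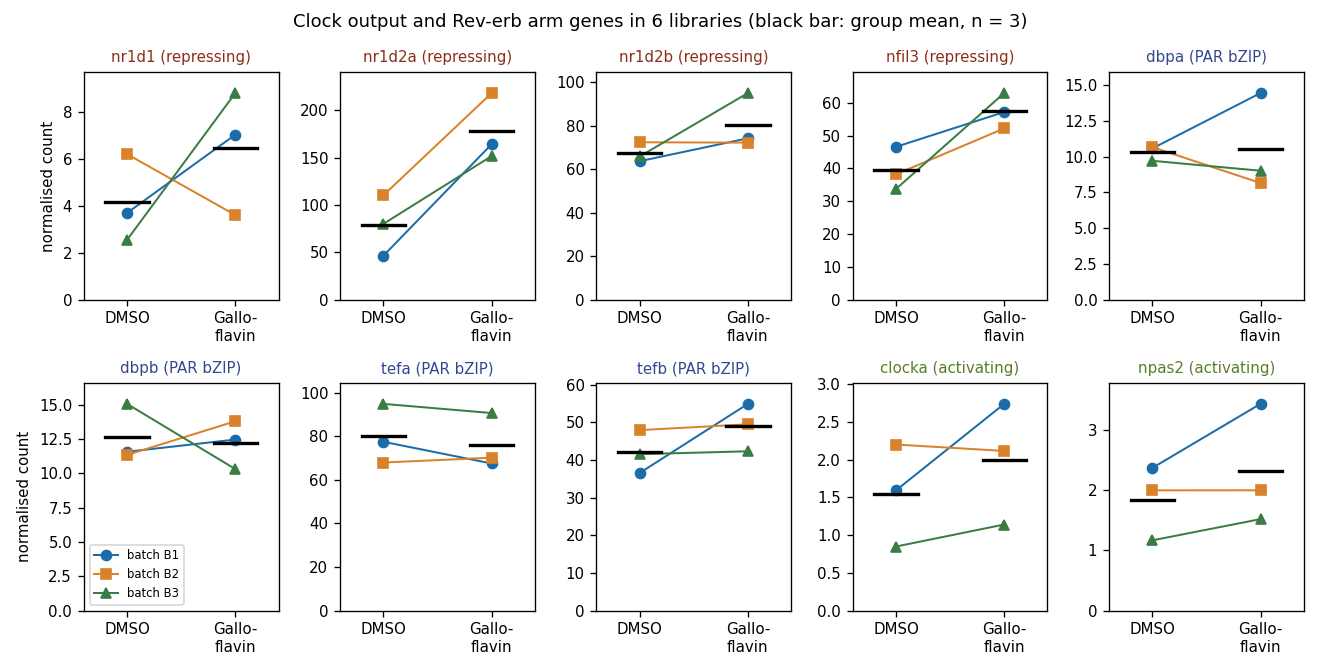
Normalised counts (vertical axis, from 0) of the 10 genes in the DMSO and Galloflavin libraries, with lines joining the libraries of 1 batch and black bars at the group means (n = 3). Only nr1d2a and nfil3 had all Galloflavin libraries above all DMSO libraries.

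Among the repressing genes, nr1d2a and nfil3 were higher in every Galloflavin library than in any DMSO library, while nr1d1 and nr1d2b overlapped between the groups. The gene nr1d2a (ENSDARG00000003820) encodes a Rev-erb beta receptor. Its normalised counts were 46.3 (B1), 110.1 (B2) and 79.99 (B3) with DMSO and 164 (B1), 218 (B2) and 152 (B3) with Galloflavin. The highest DMSO library, B2, lay below the lowest Galloflavin library, B3, but the DMSO libraries themselves spanned 2.38-fold, with B1 lowest. The means were 78.8 ± 31.9 (SD, n = 3) and 178 ± 35.3 (SD, n = 3), which differed by 1.23 ± 0.30 (SE) on the log2 scale, with a 95% interval of 0.52 to 1.94. It did not pass limma with Benjamini-Hochberg adjustment over the 15806 tested genes (adjusted p = 0.602, unadjusted p = 0.00430). DESeq2 on the recovered reads called it (adjusted p = 0.0272, and 2.8e-07 with batch as a block), where it called 0.367% of genes as higher, or 0.84% with the block. Over the 20 alternatives its adjusted p ran from 2.8e-07 to 1, with no call outside DESeq2. The counts rested on 1193 to 5564 reads per library.

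The gene nfil3 (ENSDARG00000042977) encodes a bZIP repressor that competes at D-boxes. It stood at 46.6 (B1), 38.2 (B2) and 33.7 (B3) normalised counts with DMSO and at 57.2 (B1), 52.2 (B2) and 62.9 (B3) with Galloflavin. The groups were closer than for nr1d2a, and the step was widest in B3, where the DMSO library was the lowest of the 6 and the Galloflavin library the highest. The means of 39.5 ± 6.52 and 57.4 ± 5.39 (SD, n = 3 each) differed by 0.54 ± 0.14 on the log2 scale (SE; limma adjusted p = 0.602, unadjusted p = 0.00552). Neither edgeR (adjusted p = 0.621) nor DESeq2 (adjusted p = 0.1198) called it, and over 20 alternatives the adjusted p was 0.113 to 1.

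The gene nr1d1 (ENSDARG00000033160), for Rev-erb alpha, had overlapping groups, unlike nr1d2a. Its normalised counts were 3.69 (B1), 6.19 (B2) and 2.54 (B3) with DMSO and 7.02 (B1), 3.60 (B2) and 8.79 (B3) with Galloflavin. Galloflavin B2 lay below DMSO B2, and the other batches differed the other way, at log2 differences of 0.77 (B1), -0.64 (B2) and 1.47 (B3). The 95% Poisson intervals, which cover counting error only, were 5.33 to 7.16 for DMSO B2 and 2.90 to 4.42 for Galloflavin B2, from 183 and 92 reads. The log2 fold change was 0.53 ± 0.35 (SE; 95% interval -0.28 to 1.35, which holds the 1.23 of nr1d2a; limma adjusted p = 0.771). It was 0.29 without DMSO B3, 0.30 without Galloflavin B3, 0.81 without DMSO B2, 0.85 without Galloflavin B2, 0.065 without batch B3 and 1.12 without batch B2. The gene nr1d2b (ENSDARG00000009594), a second Rev-erb beta gene, had 63.7, 72.4 and 65.8 normalised counts in DMSO B1, B2 and B3 and 74.2, 72.2 and 94.97 in their Galloflavin partners. In B2 the libraries were nearly equal and Galloflavin B3 was the highest of the 6. The log2 difference of 0.25 ± 0.13 (SE; limma adjusted p = 0.717) was 0.12 without that library.

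The level of nr1d2a relative to nr1d2b within a library does not depend on how libraries were scaled. This ratio of normalised counts was 0.728 (B1), 1.52 (B2) and 1.21 (B3) with DMSO and 2.21 (B1), 3.02 (B2) and 1.60 (B3) with Galloflavin. All Galloflavin ratios lay above all DMSO ratios, though DMSO B2 and Galloflavin B3 nearly met. The mean log2 ratio was 0.14 ± 0.55 and 1.14 ± 0.46 (SD, n = 3 each), and a two-sided exact permutation test gave 0.1, the smallest p that 3 libraries against 3 allow (0.4 when adjusted over the 4 pairs compared). The permutation took no account of batch, and the ratios were added after values had been seen. For the other 3 pairs, dbpa over dbpb, tefa over tefb and clocka over npas2, the ratios overlapped between groups (exact permutation p = 0.5 to 1). How the counting divided reads that fit both paralogs is not given in the sources used here.

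**Figure D2:**
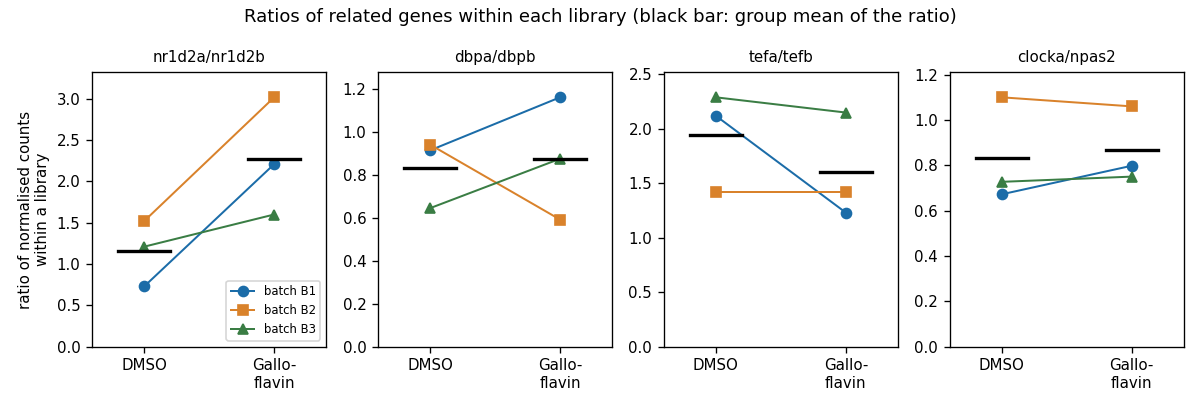
Ratio of normalised counts of related genes within each library (vertical axis, from 0), by group, with lines joining the libraries of 1 batch and black bars at the group means of the ratio. The nr1d2a/nr1d2b ratio was 0.728 to 1.52 with DMSO and 1.60 to 3.02 with Galloflavin, and the other 3 pairs overlapped.

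The PAR bZIP genes, whose products activate through the D-box, showed no shared shift. Normalised counts of tefa (ENSDARG00000039117) were 77.5 (B1), 68.0 (B2) and 94.9 (B3) with DMSO and 67.6 (B1), 70.2 (B2) and 90.7 (B3) with Galloflavin. Both B3 libraries were highest, while B1 lay above B2 with DMSO and below it with Galloflavin. The log2 fold change was -0.07 ± 0.16 (SE; 95% interval -0.45 to 0.31; limma adjusted p = 0.949). Its paralog tefb (ENSDARG00000098103) had 36.5, 47.9 and 41.5 normalised counts in DMSO B1, B2 and B3 and 54.9, 49.4 and 42.3 with Galloflavin. It was higher with Galloflavin in every batch, but by a log2 difference of 0.57 in B1 against 0.04 in B2 and 0.03 in B3 (fold change 0.22 ± 0.14 SE, limma adjusted p = 0.768). The proteins of dbpa and dbpb are named for binding the albumin promoter in mammals. Normalised counts of dbpa (ENSDARG00000063014) were 9.70 to 10.7 with DMSO and 8.15 to 14.4 with Galloflavin (log2 fold change -0.01 ± 0.20, limma adjusted p = 0.999). Those of dbpb (ENSDARG00000057652) were 11.3 to 15.1 and 10.3 to 13.8 (-0.05 ± 0.16, limma adjusted p = 0.970). In dbpa the Galloflavin libraries lay further apart (32.3% coefficient of variation) than the DMSO libraries (5.13%), with Galloflavin B1 highest. The 4 PAR bZIP genes together summed to 145 ± 14.0 (SD, n = 3) normalised counts with DMSO and 148 ± 5.54 with Galloflavin. The ratio of nfil3 to this sum was 0.342 (B1), 0.277 (B2) and 0.209 (B3) with DMSO and 0.383 (B1), 0.369 (B2) and 0.413 (B3) with Galloflavin. The ratio was higher in each Galloflavin library than in any DMSO library, as nfil3 alone was, while the sum overlapped between the groups. The nearest ratios were 0.342 (DMSO B1) and 0.369 (Galloflavin B2), and the ratio is given with no test.

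The activating genes were measured at low counts. The gene clocka (ENSDARG00000011703), which encodes the Clock partner of Bmal, had 1.59 (B1), 2.20 (B2) and 0.848 (B3) normalised counts with DMSO and 2.74 (B1), 2.12 (B2) and 1.14 (B3) with Galloflavin, from 16 to 71 reads. The gene npas2 (ENSDARG00000016536), for a Clock-like partner, had 2.37 (B1), 2.00 (B2) and 1.17 (B3) with DMSO and 3.43 (B1), 2.00 (B2) and 1.52 (B3) with Galloflavin, from 22 to 89 reads. For both, B1 showed the widest step towards Galloflavin, B2 showed almost none, and the groups overlapped. The log2 fold changes of 0.23 ± 0.28 for clocka and 0.20 ± 0.26 for npas2 (SE; limma adjusted p = 0.894 and 0.901) had 95% intervals of -0.42 to 0.89 and -0.41 to 0.82, so that both 0 and a difference of 1.5-fold lay within them.

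**Figure D3:**
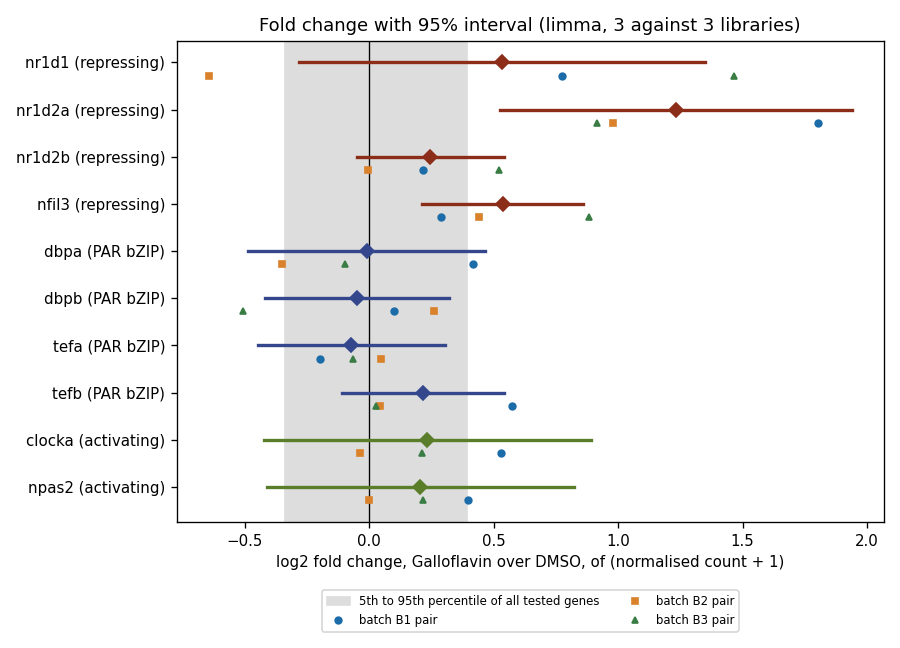
Log2 fold change of (normalised count + 1), Galloflavin over DMSO, for the 10 genes (diamonds) with 95% intervals from limma, the difference within each batch pair (small symbols) and the 5th to 95th percentile of all tested genes (grey). Intervals of nr1d2a and nfil3 lie above 0, before any adjustment for the number of genes tested.

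Across the 10 genes, limma called 0 as higher or lower, as it did 0% of all 15806 tested genes in either direction (lowest adjusted p = 0.253). The 10 genes were chosen with earlier results of these data known, so the counts that follow are description only. At an unadjusted p under 0.05 there were 2 of the 10 as higher, where 4.18% of all tested genes were higher, and 0 as lower, against 3.03%. The groups did not overlap, with Galloflavin higher, for 2 of the 10 genes and 6.97% of all tested genes. Galloflavin was the higher library in 3 of 3 batch pairs for 4 of the 10, against 17% of all tested genes. These were nr1d2a, nfil3, tefb and npas2, the last with equal values in B2 to 3 digits. The edgeR test called 0 of the 10, with or without batch as a block, and DESeq2 called nr1d2a alone. The median log2 fold change was 0.22 over the 10 genes, 0.53 over the repressing, -0.03 over the PAR bZIP and 0.22 over the activating genes, beside -0.004 over all tested genes. The batch medians of the 10 were 0.41 (B1), 0.02 (B2) and 0.21 (B3). The median of the 10 was 0.09 without Galloflavin B1, 0.14 without DMSO B3, 0.10 without batch B1 and 0.34 without batch B2.

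The other genes of the clock were taken from 4 lists, of which 40 genes were tested. These lists too were chosen with earlier results known, so their counts beside the shares of all genes are description only. Limma called 0 of these 40, DESeq2 called per2 and cry1a, and DESeq2 with batch as a block called these and nfil3-6 and gsk3bb, all as higher, where it called 0.367% of all genes as higher, or 0.84% with the block. Partners and opponents of the Rev-erb arm, the clockb, Bmal-type (arntl) and Ror genes, had a median log2 fold change of -0.25 over 8 tested genes, with 6 below 0. The median was -0.16 without Galloflavin B3 and -0.17 without batch B2. Its batch medians were -0.02 (B1), -0.385 (B2) and -0.24 (B3), so that B1 showed almost no shift. In 4 of the 8 (clockb, arntl1a, roraa and rorcb) every Galloflavin library was below every DMSO library, against 6.47% of all tested genes. At an unadjusted limma p under 0.05, 1 of the 8 was lower, against 3.03% of all tested genes, and 0 were higher. For roraa the groups were apart by less than 1 read, at 4.08 in DMSO B1 and 4.05 in Galloflavin B1, and for rorcb they stood at 8.32 in DMSO B3 and 8.23 in Galloflavin B2. The gene arntl1a, a Bmal1 gene that Rev-erbs repress in mouse, had 16.0, 17.97 and 14.0 normalised counts in DMSO B1, B2 and B3 and 13.6, 11.3 and 11.4 with Galloflavin (log2 fold change -0.37 ± 0.13, limma adjusted p = 0.648). The DMSO values lay above the Galloflavin values by a small margin, between DMSO B3 and Galloflavin B1. The Clock paralog clockb had 20.9, 21.8 and 21.5 with DMSO and 20.3, 16.7 and 13.7 with Galloflavin (-0.34 ± 0.15, limma adjusted p = 0.690), in the direction opposite to clocka and npas2. The second Bmal1 gene, arntl1b, had a log2 fold change of -0.39 ± 0.22 (limma adjusted p = 0.738) with overlapping groups, since Galloflavin B1 (8.56) lay above DMSO B1 (8.04).

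Period and cryptochrome genes, some but not all of whose products repress Clock and Bmal, had a median of 0.28 over 12 tested genes, with 11 above 0. In 4 of the 12 (per2, per3, cry1a and cry5) the groups did not overlap, with Galloflavin higher, against 6.97% of all tested genes. At an unadjusted limma p under 0.05, 3 of the 12 were higher, against 4.18% of all tested genes, and 0 were lower. For cry5 the groups nearly met, at 1.44 normalised counts in DMSO B1 and 1.49 in Galloflavin B2. The log2 fold changes were 1.303 ± 0.24 for per2, 1.01 ± 0.15 for cry1a and 0.52 ± 0.25 for cry4 (SE; limma adjusted p = 0.429, 0.381 and 0.692).

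Other repressors and output factors had a median of 0.40 over 8 tested genes, 7 of them above 0 and 4 (nfil3-6, bhlhe40, bhlhe41 and ciarta) with Galloflavin higher and no overlap, against 6.97% of all tested genes. At an unadjusted limma p under 0.05, 4 of the 8 were higher, against 4.18% of all tested genes. The genes nr1d4a and nr1d4b of this list averaged below 1 and were not tested. In nr1d4a the groups did not overlap, with Galloflavin lower. With no filter the list median was 0.33. The Nfil3-related gene nfil3-6 had 10.8 (B1), 16.0 (B2) and 22.7 (B3) normalised counts with DMSO and 32.8 (B1), 23.8 (B2) and 43.6 (B3) with Galloflavin (log2 fold change 0.99 ± 0.30, limma adjusted p = 0.602). As for nr1d2a, DMSO B1 was the lowest library and B1 the batch with the widest step. The E-box repressor genes bhlhe40 and bhlhe41 behaved otherwise, with Galloflavin B2 at 323 and 66.6 against 122 to 130.0 and 19.6 to 22.2 in the other Galloflavin libraries (0.92 ± 0.38 and 1.05 ± 0.42). Of the 10 genes followed here, Galloflavin B2 held the highest value of the 6 libraries in nr1d2a only. Among the Galloflavin libraries alone it was also highest in dbpb (13.8, against 12.5 in B1 and 10.3 in B3). Kinases, ligases and partners of the clock had a median of 0.002 over 12 tested genes, 6 above and 6 below 0. In 4 of the 12 (csnk1da, csnk1db, fbxl3b and gsk3bb) the groups did not overlap, with Galloflavin higher, the same count as for the period and cryptochrome genes and against 6.97% of all tested genes. At an unadjusted limma p under 0.05, 3 of these 12 were higher, against 4.18% of all tested genes, and 0 were lower. The log2 fold changes were 0.79 ± 0.23 for gsk3bb, 0.39 ± 0.13 for the casein kinase gene csnk1db and -0.36 ± 0.17 for tipin (SE; limma adjusted p = 0.602, 0.640 and 0.692).

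**Figure D4:**
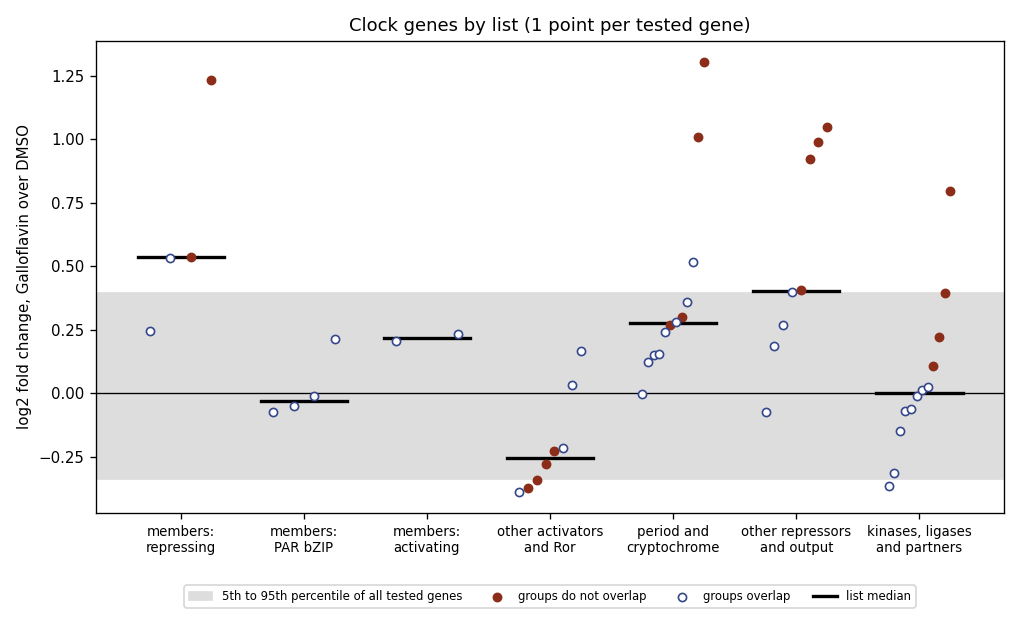
Log2 fold change, Galloflavin over DMSO, of each tested clock gene by list (1 point per gene), with list medians (black bars) and the 5th to 95th percentile of all tested genes (grey). Filled points mark genes whose groups do not overlap, which lie above 0 among the repressing, period and cryptochrome and other repressor genes and among the kinases, ligases and partners, and below 0 among the other activators and Ror genes.

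Batch B3 stood apart from the other batches in some of the 10 genes, at a rate near that over all tested genes. Both B3 libraries lay below the other 4 for clocka and npas2 and above them for tefa, an ordering that 16.2% of all tested genes showed as lower and 12% as higher. With treatment in the model, B3 differed from the mean of B1 and B2 by -0.66 ± 0.19 (SE) on the log2 scale for clocka, -0.54 ± 0.17 for npas2 and 0.39 ± 0.10 for tefa. None of the 10 passed limma (adjusted p = 0.159, 0.183 and 0.131 for these 3), while 0.525% of tested genes were called as lower in B3 and 0.215% as higher. For nr1d2a and nfil3 this difference of B3 from the mean of B1 and B2 was smaller than its error (-0.08 ± 0.19 and -0.06 ± 0.14). It does not show differences between B1 and B2. In nr1d2a B1 lay below B2 in both groups, at 46.3 and 110.1 normalised counts with DMSO and 164 and 218 with Galloflavin. Osteoblast markers moved with the batch as well, since 7 markers summed to 581 and 584 normalised counts in B3 and to 271 to 438 in the other libraries. Macrophage markers were ordered alike, at 715 and 797 in B3 and 485 to 593 in the other libraries. So were neuron and glia markers, at 22.8 and 18.1 in B3 and 12.5 to 16.3 in the others, over 5 genes. The part of these cells in the batch differences was not tested. Sums of epidermis, early regenerate, neutrophil, erythrocyte and skeletal muscle markers did not have both B3 libraries above the others, an ordering that 12% of all tested genes showed.

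**Figure D5:**
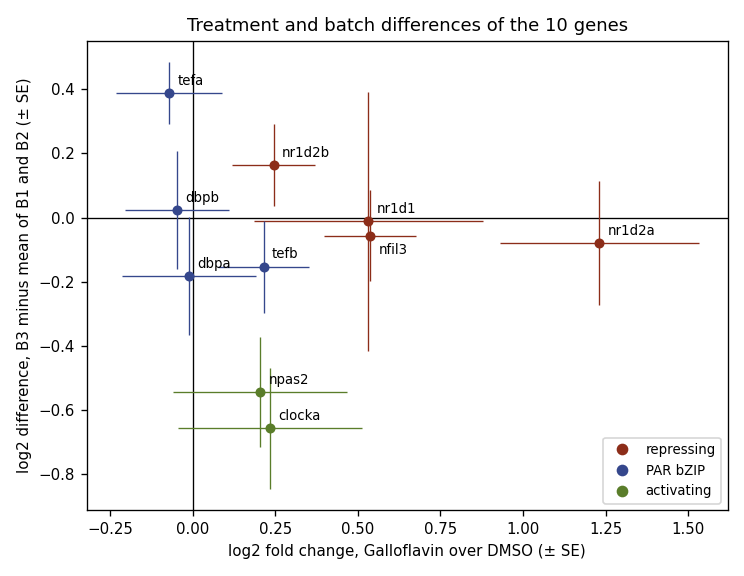
Treatment difference (horizontal axis, log2 fold change, Galloflavin over DMSO) against batch difference (vertical axis, log2, B3 minus the mean of B1 and B2) of the 10 genes, with bars of 1 SE in each direction. The gene nr1d2a lies far to the right near 0 on the batch axis, and clocka, npas2 and tefa lie furthest from 0 on the batch axis. Differences between B1 and B2, which nr1d2a showed in both groups, do not appear on this axis.

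Markers of blood and immune cells were read beside these genes. Neutrophil markers summed to 32.7 to 89.8 normalised counts with DMSO and 50.8 to 76.5 with Galloflavin over 6 genes. Macrophage markers summed to 577 to 715 and 485 to 797 over 7 genes, and erythrocyte markers to 42.3 to 139 and 50.3 to 106 over 6. For each of these lists the groups overlapped. Within batches the neutrophil sum was 35.9 and 52.8 in B1, 32.7 and 76.5 in B2, and 89.8 and 50.8 in B3 (DMSO and Galloflavin), and all 4 tested neutrophil markers had log2 fold changes above 0, with a median of 0.35 and 0 called by limma. The part of these cells in the values of the 10 genes was not tested.

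The genes most like nr1d2a over the 6 libraries, among 10313 named genes with a mean of at least 5, were btg1 (Pearson r = 0.986), an antiproliferative factor, then ndufb9, slc6a7, samd8 and rel (r = 0.980 to 0.983). Those most opposed were armc10, actr6 and uqcc2 (r = -0.988 to -0.982). For tefa the closest were casp22, pcxa, fundc2, FKBP3 and kif2c (r = 0.987 to 0.995) and the most opposed included hps1 and dop1b (r = -0.989 and -0.988). For npas2 the closest included arpc4l, rras, mapk3 and ppp1r14bb (r = 0.985 to 0.993), and the most opposed were akap8l, and1 and mtrf1 (r = -0.991 to -0.984). These values rank genes over 6 libraries that share 2 treatments and 3 batches, and they carry no test.

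Genes flanking nr1d2a and nfil3 showed smaller differences than these genes, which had the largest differences of the 10 and so leave little room for larger neighbours. In the RefSeq gene table of the GRCz12tu assembly, the protein-coding genes beside nr1d2a are ube2e2 and nek10, and those beside nfil3 are ror2 and auh. Log2 fold changes were 0.10 ± 0.12 for ube2e2, 0.02 ± 0.12 for ror2 and 0.09 ± 0.13 for auh (SE; limma adjusted p = 0.894, 0.987 and 0.916), and nek10 was not analysed here. The ribosomal protein gene rpl15 and the thyroid hormone receptor gene thrb, which flank nr1d2b, stood at 0.13 ± 0.09 and -0.15 ± 0.15. For dbpa, dbpb and tefa the tested neighbours lay further from 0 than the gene itself. Those of dbpb (-0.05) stood at 0.31 ± 0.44 and -0.34 ± 0.16. Of the 20 nearest neighbours of the 10 genes, 16 were tested, with log2 fold changes of -0.38 to 0.31 and unadjusted limma p of 0.0679 or more, and 0 of the 20 overlap the span of the gene they flank in that assembly.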

How the data were processed

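Poly(A) RNA of fin pools was sequenced with a stranded kit, per the labels' protocols. The submitters' processing notes name STAR 2.7.10a and GRCz11, and no source used here names the counting program, annotation or normalization. In the deposited table the authors give a signal for each gene and library, a normalised count, with no pooling of libraries. Dividing each column by its smallest positive value returned whole reads (100% of values, tolerance 0.01 of a read). Scaling these reads by library size with TMM factors gave 0.997 to 1.005 times the deposited values. The floor, 3 reads for a gene at 0, equals 0.102 to 0.163 normalised counts. It and the Poisson intervals cover counting error only. Symbols were the deposited ones, with 1485 of 2175 blank ones filled from a gene name table. No table of sequences and no genome of the GRCz11 build was used here, so the motif search planned for promoters was not run and no coordinates are given.

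The test was limma 3.58.1 (R 4.3.3) on log2(value + 1) (mean trend, two-sided, Benjamini-Hochberg at 0.05) over 15806 genes with a mean of at least 1, which all 10 members reached. Fold changes understate those of low genes. The libraries are separate pools, and p-values set the group difference against the spread of the 3 pools within each group. Without the batch block this spread includes batch differences. Alternatives were batch as a block, other pseudocounts, filters and scalings, left-out libraries and batches, and edgeR 4.0.16 and DESeq2 1.42.0 on the recovered reads. Limma with and without the block, edgeR and DESeq2 were run on simulated counts that held no batch differences, with results not reported here. The edgeR and DESeq2 fits with the block were not run on simulated counts. Batch labels pair the libraries, and deviations from the group means correlated at 0.10 (B1), 0.08 (B2) and 0.49 (B3) within a batch. No library repeated another (chi-square per degree of freedom 11.1 to 58.0). All 10 members were named, with the 3 largest changes of each other clock list, and for the member with the highest mean in each arm the 5 most like and 3 most opposed genes, of which some are not reported here. Members and lists were chosen with earlier results of these data known, and the contrast of B3 with B1 and B2, the ratios within a library and the neighbouring genes were added after values had been seen. The 4 other clock lists held 50 names, which gave 43 rows.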

Additional observations from a re-analysis of the deposited data

How the results depend on the processing

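Limma called 0 genes in all, and 0 of the 10 members, in every alternative except the removal of batch B2, added after the data were seen, which called 1 gene (mhc2dab, not a clock gene). DESeq2 called 83 genes and 1 member (nr1d2a), or 149 genes and 1 member with batch as a block, and edgeR called 0 with and without the block. At an unadjusted p under 0.05 limma gave 1139 genes. The log2 fold changes of nr1d1, nr1d2a, nr1d2b, nfil3, tefb and clocka kept their sign in all alternatives, with 0.90 to 1.51 for nr1d2a and 0.43 to 0.66 for nfil3 when single libraries were left out. Without single libraries clocka ran from 0.020 to 0.46, tefb from 0.12 to 0.31, nr1d2b from 0.12 to 0.32 and nr1d1 from 0.29 to 0.85. Without batch B3 nr1d1 was at 0.065, and without batch B1 tefb was at 0.035. The sign of dbpa (-0.01) changed with edgeR (0.028), DESeq2 (0.030), without batch B3 (0.033), without batch B2 (0.16) and without single libraries (-0.24 to 0.14). That of dbpb (-0.05) changed without batch B3 (0.18) and over single libraries (-0.14 to 0.074). Without single libraries tefa ran from -0.20 to 0.056 and npas2 from -0.025 to 0.38. The median of the period and cryptochrome list, 0.28, was 0.19 with a pseudocount of 5, which shrinks changes of low genes by construction. That of the other repressors, 0.40, was 0.31 without batch B1, 0.33 with no filter on low values and 0.34 to 0.51 without single libraries. For the sign changes the cause was not tested. A minimum mean of 5 left clocka and npas2 out. With the batch block the limma adjusted p of nr1d2a was 0.226, and the block changed no limma call. The lowest depth was that of clocka and npas2, at 16 to 89 reads per library. Counting error alone gives a coefficient of variation of 13.4% to 15.7% at the mean reads of a group. In single libraries it was 10.6% (npas2, Galloflavin B1) to 25% (clocka, DMSO B3). The libraries of a group varied by 33.4% to 43.8%.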

Other observations

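A further pair of Rev-erb-related genes, nr1d4a and nr1d4b, averaged below 1 normalised count and entered no test above. The gene nr1d4a (ENSDARG00000031161) was at 0.971 (B1), 0.880 (B2) and 1.01 (B3) with DMSO and at 0.463 (B1), 0.470 (B2) and 0.271 (B3) with Galloflavin. Every Galloflavin library was below every DMSO library, the reverse of nr1d2a, from 25, 26 and 19 reads against 12, 12 and 5. Counting error alone is wide at this depth, with 95% Poisson intervals of 0.606 to 1.57 in DMSO B3 and 0.239 to 0.809 in Galloflavin B1. Without a filter on low values the log2 fold change was -0.48 ± 0.12 (SE; limma adjusted p = 0.667, unadjusted p = 0.00457). Of the 1478 genes that averaged 0.5 to 1, 5.62% had Galloflavin lower with no overlap. The gene nr1d4b was at 0.530 to 1.15 with DMSO and 0.705 to 1.31 with Galloflavin (0.15 ± 0.18, limma adjusted p = 0.910), with overlapping groups.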
